A study of Homo sapiens with 3 samples.

Results

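The 6 genes PLA2G2A, CLCA2, COL3A1, MYLK, HOPX and CPLANE1 were close to confined to ribociclib-sensitive CAMA-1 cells when the sensitive and the resistant lineage were grown apart. They were chosen by their readout: each had at least 5 CPM (its unique molecular identifiers, UMIs, over all UMIs of the population, scaled to the usual common total) in the summed cells of the sensitive monoculture and at least 16 times its level in the resistant monoculture. All 6 were found by symbol among 22497 genes with a symbol. They are 6 of the 17 genes that met these limits, which is 0.194% of the 8781 genes with at least 5 CPM in the sensitive monoculture. Since the difference between the monocultures chose the genes, it is described here and not tested.

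CAMA-1 is a long-established luminal breast cancer line that expresses the estrogen receptor. The sensitive lineage carried the fluorescent transgene mVenus, and the resistant lineage, derived from CAMA-1 by prolonged growth in ribociclib, carried mCherry. Ribociclib inhibits the kinases CDK4 and CDK6, which drive cells out of G1. Spheroids of 100% sensitive cells, of 50% of each lineage, or of 100% resistant cells were plated at 2000 cells, all received 1 µM ribociclib, and were harvested after 11 days for 10x Genomics 3′ single-cell RNA-seq. No untreated spheroid is among the samples. Each condition was 1 library, so nothing here was tested across replicates, the library and the condition cannot be told apart, and every interval is a 95% interval for counting error only. The resistant lineage is 1 selected line, and nothing in the labels says whether spheroids were pooled.

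The deposited cell annotation gave 3329 sensitive monoculture cells with 96247731 UMIs on named genes, 2059 sensitive and 6292 resistant cells of the coculture with 70896822 and 199632131 UMIs, and 7557 resistant monoculture cells with 270891547 UMIs. Median UMIs per cell ran from 27622 in the sensitive monoculture to 35443 in the resistant monoculture. Libraries shared 7 to 17 annotated cell barcodes. All 9 luminal epithelial markers (among them GATA3, FOXA1, KRT8 and EPCAM) had at least 5 CPM in each of the 4 populations, with summed levels of 8531 to 10552 CPM. Of the 9 fibroblast markers, 7 had 0 UMIs in the sensitive monoculture and the list summed to 3.57 to 4.73 CPM over the populations. The 4 immune markers summed to at most 1.16 CPM and the 2 endothelial markers found in the files to at most 0.301 CPM.

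The genes belong to different biological systems. PLA2G2A encodes a secreted phospholipase A2 that releases fatty acids from phospholipids and takes part in inflammation and antibacterial defence. CLCA2 encodes a secreted and membrane-bound regulator of calcium-activated chloride channels that is known as a p53 target in breast epithelium. COL3A1 encodes the chain of fibrillar collagen III, which connective tissue cells usually make. MYLK encodes myosin light chain kinase, which starts actomyosin contraction, and is a usual gene of smooth muscle and myoepithelium. HOPX encodes a small homeodomain protein that does not bind DNA and acts with partner proteins, and CPLANE1 encodes a protein needed to build primary cilia.

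On GRCh37 (GENCODE 44 positions), PLA2G2A lies on chromosome 1 from 20301924 to 20306909 (minus strand) and CLCA2 on chromosome 1 from 86889854 to 86922236 (plus strand). COL3A1 lies on chromosome 2 from 189839099 to 189877472 (plus strand), MYLK on chromosome 3 from 123328896 to 123603179 (minus strand), HOPX on chromosome 4 from 57514155 to 57548043 (minus strand) and CPLANE1 on chromosome 5 from 37106330 to 37249478 (minus strand). The genes are not neighbours of each other, and only PLA2G2A and CLCA2 share a chromosome.

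RefSeq promoters (GRCh38.p14) were matched for 5 of the 6 genes. The 250 bases before the first RefSeq start listed are shown for the genes whose level in coculture was the smallest share of that in monoculture, PLA2G2A, CLCA2 and HOPX, and for CPLANE1, whose level was the same in both cultures within counting error, because the results turn on this contrast. Capitals mark matches on either strand to the TATA box (TATAAA), the CCAAT box (CCAAT), the GC box (GGGCGG) or the AP-1 site (TGACTCA).
PLA2G2A, chr1:19979660-19979909, minus strand: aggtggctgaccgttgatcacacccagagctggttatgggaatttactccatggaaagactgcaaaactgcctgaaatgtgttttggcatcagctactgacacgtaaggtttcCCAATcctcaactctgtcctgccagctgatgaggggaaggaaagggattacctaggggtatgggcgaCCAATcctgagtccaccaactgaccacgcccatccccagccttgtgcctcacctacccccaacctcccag
CLCA2, chr1:86423921-86424170, plus strand: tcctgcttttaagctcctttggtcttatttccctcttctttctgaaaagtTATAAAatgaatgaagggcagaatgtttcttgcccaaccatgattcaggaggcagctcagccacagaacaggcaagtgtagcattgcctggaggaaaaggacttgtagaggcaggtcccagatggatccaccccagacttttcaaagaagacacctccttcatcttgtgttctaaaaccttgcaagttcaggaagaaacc
HOPX, chr4:56681297-56681546, minus strand: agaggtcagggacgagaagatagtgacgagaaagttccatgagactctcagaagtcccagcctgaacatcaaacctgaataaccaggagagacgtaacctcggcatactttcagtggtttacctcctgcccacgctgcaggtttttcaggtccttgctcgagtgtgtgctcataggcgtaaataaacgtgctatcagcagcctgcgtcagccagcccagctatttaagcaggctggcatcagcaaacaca
CPLANE1, chr5:37249377-37249626, minus strand: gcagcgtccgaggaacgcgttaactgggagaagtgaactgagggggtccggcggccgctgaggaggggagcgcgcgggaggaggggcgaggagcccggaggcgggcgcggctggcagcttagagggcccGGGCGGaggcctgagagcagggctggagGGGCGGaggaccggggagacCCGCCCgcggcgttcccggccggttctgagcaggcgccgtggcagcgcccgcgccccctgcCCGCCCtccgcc
The CPLANE1 window held 4 GC boxes and 32 CG dinucleotides, more than 90.5% of 35116 RefSeq promoters cut to the same length. The CLCA2 window held no CG dinucleotide and a TATA box at position -200 from the start, the PLA2G2A window held 4 CG dinucleotides and 2 CCAAT boxes, and the HOPX window held 9 CG dinucleotides and no match. The window of MYLK, the other gene matched, is not shown. It held 3 CG dinucleotides, 2 overlapping TATA box matches, 1 CCAAT box and no GC box, although MYLK was not among the 3 genes with the smallest share. Over all promoters of this length the median was 11 CG dinucleotides, 42.6% held a GC box, 32.0% a CCAAT box, 10.7% a TATA box and 4.20% an AP-1 site. PLA2G2A has 3 and HOPX 2 RefSeq starts, and counts of 3′ ends do not show which start a cell used. These matches are letters in a window and carry no measurement of binding.

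The 6 genes kept different shares of their level in coculture. The plot of levels shows each gene in the 4 populations, which are the 4 summed values there are for it. PLA2G2A had 12.8 CPM (95% exact Poisson interval 12.1 to 13.5) in sensitive monoculture cells, 1.68 CPM (1.39 to 2.01) in sensitive coculture cells, 1.03 CPM (0.891 to 1.18) in resistant coculture cells and 0.450 CPM (0.374 to 0.538) in resistant monoculture cells. The sensitive monoculture thus stood alone for PLA2G2A, and the other 3 populations lay within a few fold of each other. CLCA2 had 5.44 CPM (4.99 to 5.93), 0.564 CPM (0.403 to 0.768), 0.0701 CPM (0.0383 to 0.118) and 0.0258 CPM (0.0104 to 0.0532) in the same order, the last from 7 UMIs. HOPX had 13.8 CPM (13.04 to 14.5), 2.05 CPM (1.73 to 2.41), 0.847 CPM (0.724 to 0.984) and 0.506 CPM (0.425 to 0.598). For these 3 genes, and for MYLK below, the cocultured sensitive cells lay nearer in CPM to the resistant cells than to sensitive cells grown alone. The rule made the resistant monoculture level low, so a gene that falls far comes near it in CPM. By ratio, CLCA2 in cocultured sensitive cells still had 8.05 times its level in the resistant cells of that library.

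The other 3 genes had more than 0.25 of their monoculture level left in sensitive coculture cells. COL3A1 had 35.2 CPM (34.1 to 36.4) in sensitive monoculture cells, 18.7 CPM (17.7 to 19.7) in sensitive coculture cells, 2.12 CPM (1.92 to 2.33) in resistant coculture cells and 0.181 CPM (0.134 to 0.239) in resistant monoculture cells. MYLK had 29.4 CPM (28.3 to 30.5), 12.003 CPM (11.2 to 12.8), 2.05 CPM (1.86 to 2.26) and 0.845 CPM (0.739 to 0.962) in that order. CPLANE1 had 5.95 CPM (5.48 to 6.46), 5.87 CPM (5.32 to 6.46), 0.611 CPM (0.508 to 0.730) and 0.221 CPM (0.169 to 0.285). The 2 sensitive populations could not be told apart for CPLANE1, since their intervals cover each other's value. All 6 genes had the same order of the populations, from sensitive monoculture through sensitive coculture and resistant coculture to resistant monoculture. The rule placed the first of these far above the last, so part of the order was fixed by the choice. How many of all genes had this order was not counted. Neighbouring intervals overlapped only for the sensitive populations of CPLANE1 and the resistant populations of CLCA2.

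**Figure D1:**
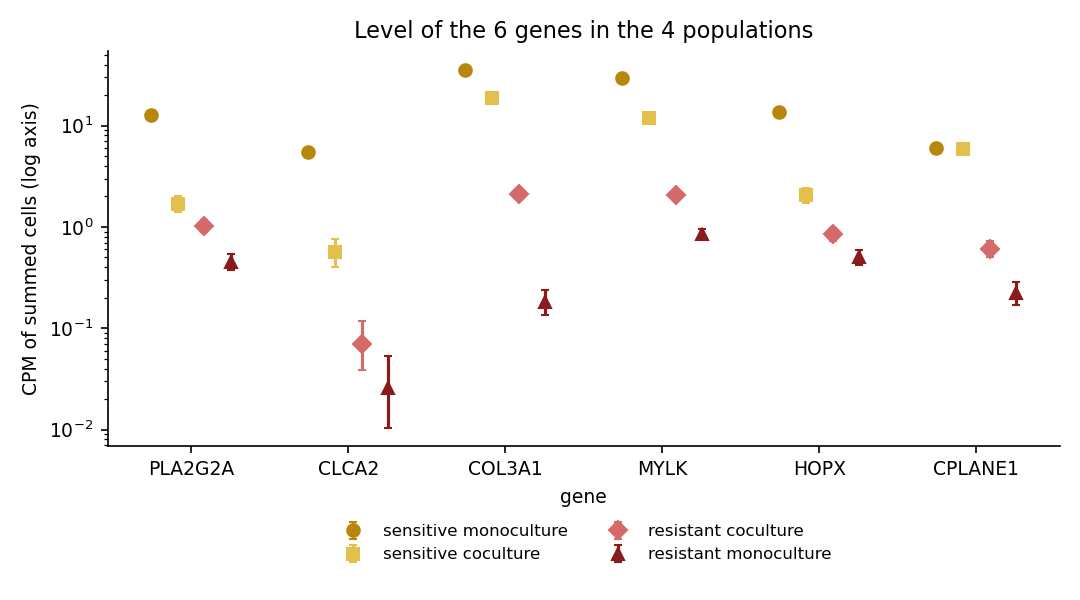
CPM of each gene (log axis) in the summed cells of the 4 populations, with 95% exact Poisson intervals. The sensitive monoculture is highest for all 6 genes, and the sensitive coculture value falls near the resistant ones for PLA2G2A but stays at the monoculture value for CPLANE1.

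In the monocultures, the contrast that chose the genes, the ratio of sensitive to resistant CPM was 211 for CLCA2, with an interval of 102 to 527 because few resistant UMIs stood against it, and 195 (147 to 264) for COL3A1. It was 34.8 for MYLK, 28.4 for PLA2G2A, 27.2 for HOPX and 26.9 for CPLANE1. For COL3A1, 19 of the 49 resistant UMIs lay in 1 cell, so its interval is too narrow. Nearest to the limit of 16 from inside were SCGB2A2, a mammary secretory gene, at 19.0 and B3GALT5-AS1 at 17.6. Nearest from outside were KRT16 at 15.998 and SATB1 at 15.7.

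Cells of the coculture did not enter the choice. Within that library, sensitive cells had at least 4 times the resistant level for 4 of the 6 genes, CPLANE1, COL3A1, CLCA2 and MYLK. The ratio was 9.60 (95% conditional binomial interval 7.83 to 11.8) for CPLANE1, 8.83 (7.91 to 9.87) for COL3A1, 8.05 (4.29 to 16.01) for CLCA2 and 5.86 (5.20 to 6.61) for MYLK. Without the 84 sensitive coculture cells of the authors' cluster 4 the CLCA2 ratio was 3.34 (1.53 to 7.38), under the limit. HOPX at 2.42 (1.92 to 3.03) and PLA2G2A at 1.63 (1.29 to 2.06) did not reach it, though their intervals lay above 1. Of all genes with at least 5 CPM in the sensitive monoculture, 0.319% reached 4 times within the coculture, and of those with at least 5 CPM in sensitive coculture cells 0.301%. Of the 11 other genes that met the limits in monoculture, 9 did so too. The genes had already been selected on a large difference between the same lineages, so a share above that of all genes carries that choice with it.

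In sensitive cells, coculture over monoculture, 2 of the 6 genes were kept, that is at least 0.5 of their monoculture level: CPLANE1 at 0.986 (0.867 to 1.12) and COL3A1 at 0.531 (0.498 to 0.566), whose interval reaches below 0.5. Lost genes, under 0.25, were the 3 genes CLCA2 at 0.104 (0.0732 to 0.143), PLA2G2A at 0.131 (0.108 to 0.159) and HOPX at 0.149 (0.124 to 0.176), and MYLK lay between the limits at 0.408 (0.378 to 0.441). Among cells of the authors' cluster 3 alone CLCA2 (0.278, 0.105 to 0.759) and HOPX (0.416, 0.281 to 0.625) lay above the limit for a lost gene. So did HOPX (0.278, 0.219 to 0.353) with cluster 4 left out of both cultures. In cluster 7 CLCA2 (0.0566, 0.0144 to 0.162) and HOPX (0.181, 0.0972 to 0.325) lay under it. The intervals of CLCA2 in cluster 3 and of HOPX in cluster 7 and without cluster 4 hold 0.25. Within cluster 4, with 1945 monoculture but only 84 coculture cells, CLCA2 (1.52), PLA2G2A (1.16) and HOPX (0.787) all lay above that limit. COL3A1 lay under 0.5 within each of clusters 3, 4 and 7. Of all genes with at least 5 CPM in the sensitive monoculture, 98.4% were kept and 0.194% were lost, with a median ratio of 0.946. Among the 11 other genes past the same limits, 5 were kept and 3 lost. The sensitive monoculture level entered both the choice and this ratio, and genes picked for a high value there can only be read against that choice. The 2 sides were also selected differently. Coculture barcodes with no transgene UMI are not annotated, but 1071 of the 3329 sensitive monoculture cells had no mVenus UMI. In cells with 2 or more UMIs of their own transgene the log2 ratio (pseudocount 1 CPM) was -1.09 for MYLK and -2.59 for HOPX, against -1.23 and -2.28 over all cells.

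Resistant cells were compared between the cultures in the same way. A low resistant monoculture level is part of the rule that chose the genes, so a ratio above 1 is favoured by that choice. Their coculture level over their monoculture level was 11.7 (8.70 to 16.1) for COL3A1, 2.76 (2.01 to 3.82) for CPLANE1, 2.71 (1.03 to 7.95) for CLCA2, 2.42 (2.06 to 2.86) for MYLK, 2.28 (1.81 to 2.88) for PLA2G2A and 1.67 (1.33 to 2.11) for HOPX. For COL3A1 the resistant monoculture level rests on 49 UMIs in 12 cells, 19 in 1 cell and 13 in another. In the resistant coculture cells 1 cell held 48 of 423 COL3A1 UMIs. Expressed as a percent of the level in the sensitive cells of the same library, the amount by which resistant cells exceeded their monoculture was 34.3% for PLA2G2A and 16.7% for HOPX, and 6.64% to 10.4% for the other 4 genes. It was 4.71% for FABP7 and 5.21% for LINC02303, other genes past the same limits, named after their values were seen. The part of RNA set free in the library in these values was not tested. The 128 resistant coculture cells that lay in the authors' clusters 3 and 7, where most cocultured sensitive cells lay, were 2.03% of the resistant coculture cells and held 12.3 CPM of COL3A1 (9.37 to 15.96), 11.3 CPM of MYLK (8.45 to 14.8) and 5.32 CPM of CPLANE1 (3.44 to 7.85). They held 1.49 CPM of HOPX (0.599 to 3.07), 0.851 CPM of PLA2G2A (0.232 to 2.18) and 1 UMI of CLCA2, against 0.831 CPM of HOPX and 1.03 CPM of PLA2G2A in the other resistant coculture cells. Without these 128 cells the resistant coculture cells had 1.87 CPM of COL3A1, 1.83 CPM of MYLK and 0.498 CPM of CPLANE1, still above the resistant monoculture. A further 18 resistant coculture cells lay in clusters 4, 8 and 12. They held 24.7 CPM of MYLK (11.9 to 45.5, 10 UMIs) and 12.4 CPM of HOPX (4.01 to 28.9, 5 UMIs). Of PLA2G2A and CLCA2 they held 2 UMIs each, of CPLANE1 1 and of COL3A1 0.

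**Figure D2:**
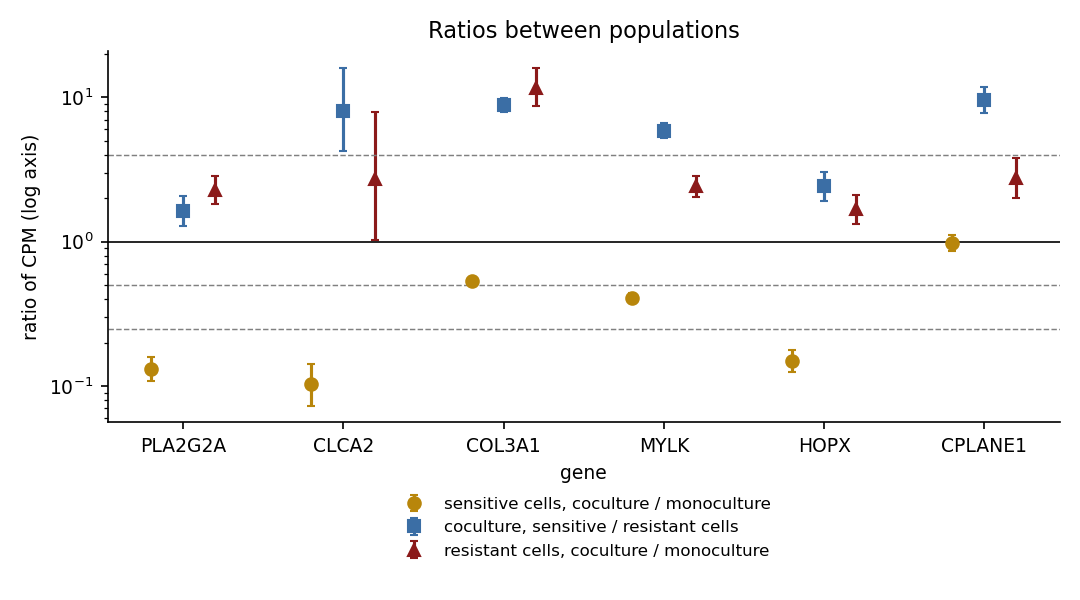
Ratios of CPM (log axis) with 95% conditional binomial intervals for sensitive cells in coculture over monoculture, sensitive over resistant cells within the coculture, and resistant cells in coculture over monoculture. Dashed lines mark 0.25, 0.5 and 4, and CLCA2 is both low in the first ratio and high in the second.

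The genes differed in how evenly single cells carried them. In the sensitive monoculture, a UMI of MYLK was found in 30.8% of cells (exact binomial interval 29.3% to 32.4%), of HOPX in 23.0% (21.6% to 24.4%), of PLA2G2A in 18.5% (17.2% to 19.8%), of CPLANE1 in 14.8% (13.6% to 16.1%), of COL3A1 in 14.4% (13.2% to 15.6%) and of CLCA2 in 7.36% (6.50% to 8.30%). In the resistant monoculture, which is deeper per cell, the same shares ran from 0.0529% for CLCA2 to 2.51% for MYLK. With every cell thinned to 5000 UMIs, which left out no cell, the sensitive monoculture shares were 9.37% for MYLK, 6.97% for COL3A1, 5.83% for PLA2G2A, 5.35% for HOPX, 2.88% for CPLANE1 and 2.55% for CLCA2. COL3A1 and PLA2G2A stood below HOPX without thinning and at 10000 UMIs but above it at 5000 UMIs, and no order of the genes is read from these shares.

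If every cell had carried the same level, 61.6% of sensitive monoculture cells would have held a COL3A1 UMI at these depths, and the observed share was 0.233 of that. This ratio was 0.510 for CLCA2, 0.557 for MYLK, 0.610 for PLA2G2A, 0.715 for HOPX and 0.946 for CPLANE1. Over 6430 genes of 5 to 50 CPM in these cells the median was 0.981 and the lowest 5% lay under 0.885, so that COL3A1 was the gene ranked 4 from the most uneven and CPLANE1 ranked 906. A single cell held up to 110 UMIs of MYLK, 72 of COL3A1, 50 of PLA2G2A, 22 of CLCA2 and 15 of HOPX, but no more than 5 of CPLANE1. The 5% of cells with most UMIs of a gene held 85.1% of all CLCA2 UMIs, 83.3% of COL3A1, 59.2% of PLA2G2A, 54.3% of MYLK, 47.6% of HOPX and 43.1% of CPLANE1. Since UMIs of 1 cell are not independent, the intervals given for the 6 genes are narrower than the true error. The variance over the mean of UMIs per cell was 20.8 for COL3A1, 13.9 for MYLK, 5.94 for PLA2G2A, 4.79 for CLCA2, 2.61 for HOPX and 1.15 for CPLANE1, where even counts would give about 1.

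The COL3A1 share of cells with a UMI was 14.4% in sensitive monoculture and 15.1% (13.6% to 16.7%) in the deeper sensitive coculture cells. At 5000 UMIs per cell it was 6.97% (6.13% to 7.89%) and 5.20% (4.28% to 6.25%), and with at least 2 UMIs 3.88% and 1.46%. Without thinning, UMIs per positive cell were 7.09 and 4.26. Cells with 5 or more COL3A1 UMIs numbered 192 of 3329 and 100 of 2059. CPLANE1 was found in 16.6% of cocultured sensitive cells (15.0% to 18.3%) and MYLK in 24.0% (22.2% to 25.9%). The lost genes were found in 5.54% (HOPX), 3.21% (PLA2G2A) and 1.26% (CLCA2) of them, against 2.16%, 2.51% and 0.207% of the resistant cells in the same library, whose median depths were 34056 and 30686.5 UMIs. The shares of PLA2G2A in the sensitive and the resistant coculture cells had overlapping intervals, and at 5000 UMIs per cell so did those of CLCA2 and of HOPX.

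**Figure D3:**
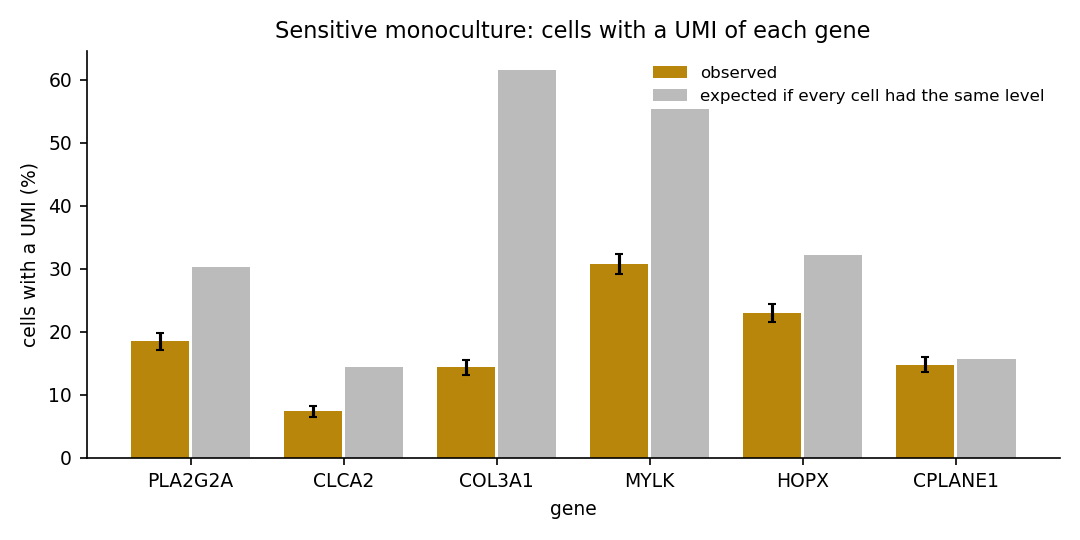
Percent of sensitive monoculture cells with at least 1 UMI of each gene (gold, with 95% exact binomial intervals) beside the percent expected if every cell had the same level (grey). The gap is widest for COL3A1 and smallest for CPLANE1.

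Few cells carried many of the genes together. In the sensitive monoculture 33.3% of cells had a UMI of none of the 6, 37.0% of 1, 19.8% of 2 and 9.82% of 3 or more, and 2 cells had all 6. In resistant monoculture cells 94.1% had none. The pair found together most often against the product of its shares was CLCA2 with HOPX, in 99 cells against 56.3 (1.76 times), followed by COL3A1 with MYLK, in 238 cells against 147 (1.62 times) and PLA2G2A with CLCA2, in 71 cells against 45.3 (1.57 times). PLA2G2A with COL3A1 was found in 69 cells against 88.3. At 5000 UMIs per cell the highest values were 3.30 times for CLCA2 with HOPX (15 cells), 2.12 times for PLA2G2A with HOPX (22 cells), 2.04 times for CLCA2 with CPLANE1 (5 cells, against 0.827 times without thinning) and 1.93 times for COL3A1 with MYLK (42 cells), and PLA2G2A with COL3A1 stood at 0.962 times (13 cells), too few cells to tell this from the unthinned value. Deeper cells hold more of every gene, and correlations of log-normalized values over cells were weak, from -0.05 to 0.16, in these sparse counts.

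The authors' clusters were built from these same cells and genes, so levels by cluster are a description. Of the sensitive monoculture cells, 1945 lay in cluster 4, 681 in cluster 8, 267 in cluster 3, 232 in cluster 7 and 156 in cluster 12. PLA2G2A reached 94.0 CPM (84.6 to 104) in cluster 12, where 51.3% of cells had a UMI. These 156 cells held 29.8% of all its UMIs, and in the other 4 clusters it had 3.07 to 14.6 CPM. The same cluster was low in COL3A1, at 2.31 CPM, in MYLK, at 4.88 CPM, and in CLCA2, at 1.28 CPM. Without cluster 12 the sensitive monoculture had 9.36 CPM of PLA2G2A and its ratio of coculture over monoculture was 0.179 (0.147 to 0.218), an alternative added after the data were seen.

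HOPX was highest in cluster 4, at 18.9 CPM (17.8 to 20.1), and had 4.33 to 7.70 CPM in the other 4. COL3A1 had 42.7 to 44.6 CPM in clusters 3, 4 and 7 and 5.79 CPM (4.63 to 7.14) in cluster 8, which held 20.5% of these cells but 2.57% of its UMIs. MYLK had 33.4 CPM in cluster 4 and 32.3 CPM in cluster 8, with a UMI in 36.3% of the cells of the first and 16.7% of those of the second. In cluster 8, 1 cell held 110 of the 486 MYLK UMIs, so that level rests in part on a single cell. The most in 1 cell of cluster 4 was 64 of 1965. CLCA2 had 7.05 CPM in cluster 8 and 6.34 CPM in cluster 4 against 1.07 CPM in cluster 3. CPLANE1 varied least, from 3.99 CPM in cluster 7 to 6.64 CPM in cluster 4.

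Most cocultured sensitive cells lay in cluster 3 (1087 cells) and cluster 7 (617 cells), and 84 lay in cluster 4. Those 84 cells, 4.08% of the population, held 60.0% of its CLCA2 UMIs, 25.5% of its HOPX UMIs and 23.5% of its PLA2G2A UMIs. Their levels were 9.65 CPM of CLCA2 (6.18 to 14.4), 14.9 CPM of HOPX (10.5 to 20.5), 11.3 CPM of PLA2G2A (7.48 to 16.3) and 31.0 CPM of MYLK (24.4 to 38.7). Relative to monoculture cells of cluster 4 this was 1.52 (0.963 to 2.30) for CLCA2, 1.16 (0.762 to 1.69) for PLA2G2A, 0.927 (0.729 to 1.16) for MYLK, 0.787 (0.551 to 1.09) for HOPX and 1.33 (0.825 to 2.04) for CPLANE1. COL3A1 stood at 0.424 (0.308 to 0.569) of the monoculture cells, but 1 cell held 29 of its 45 UMIs there. For CLCA2 1 cell held 10 of the 24 UMIs, so both values rest largely on single cells. The choice of cluster partly rests on such genes, and intervals that hold 1 do not show that levels were equal.

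Within cluster 3, where both cultures had cells, the ratio of coculture over monoculture was 0.182 (0.107 to 0.308) for PLA2G2A, 0.278 (0.105 to 0.759) for CLCA2, 0.416 (0.281 to 0.625) for HOPX, 0.486 (0.429 to 0.551) for COL3A1, 0.699 (0.585 to 0.838) for MYLK and 1.30 (0.928 to 1.87) for CPLANE1. Within cluster 7 it was 0.0566 (0.0144 to 0.162) for CLCA2, 0.170 (0.0783 to 0.346) for PLA2G2A, 0.181 (0.0972 to 0.325) for HOPX, 0.405 (0.351 to 0.467) for COL3A1, 0.656 (0.522 to 0.828) for MYLK and 1.30 (0.884 to 1.95) for CPLANE1. Without the cells of cluster 4, cocultured sensitive cells had 0.234 CPM of CLCA2, 3.34 times the resistant level (1.53 to 7.38), which is under the limit of 4. The count of genes at least 4 times higher in sensitive cells then was 3 of 6, and the kept and lost genes relative to the whole monoculture were the same ones. With cluster 4 left out of both cultures, a comparison added after the data were seen, which keeps 1384 monoculture cells, the ratio of coculture over monoculture was 0.0579 (0.0323 to 0.0971) for CLCA2, 0.0757 (0.0601 to 0.0944) for PLA2G2A, 0.278 (0.219 to 0.353) for HOPX, 0.488 (0.443 to 0.539) for MYLK, 0.797 (0.731 to 0.870) for COL3A1 and 1.18 (0.990 to 1.42) for CPLANE1. HOPX then lay above the limit for a lost gene, as HOPX and CLCA2 did within cluster 3 but not within cluster 7.

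**Figure D4:**
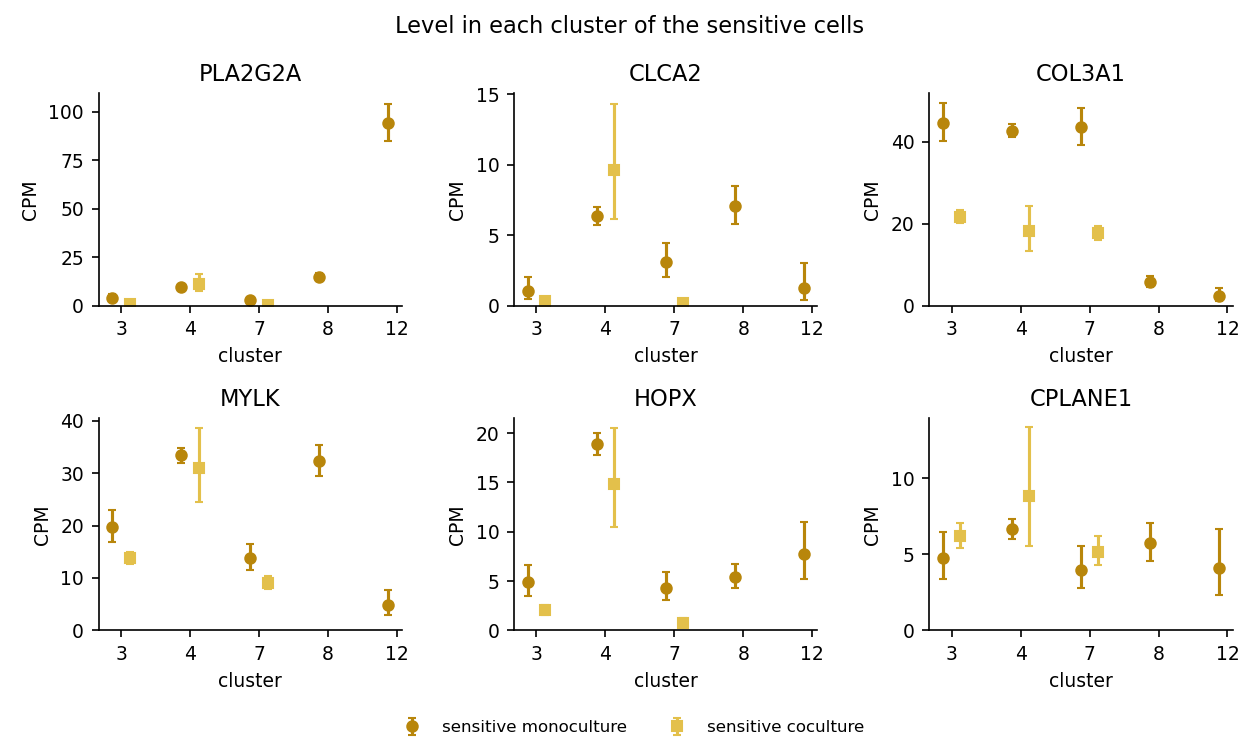
CPM of each gene in the authors' clusters with at least 50 cells, for sensitive cells of the monoculture and the coculture, with 95% exact Poisson intervals. PLA2G2A peaks in cluster 12, COL3A1 is low in clusters 8 and 12, and intervals of the cultures overlap in cluster 4 for 5 genes but not for COL3A1.

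Cell cycle phase, as the authors called it, was not a term of the rule that chose the genes, but the choice was not free of it. In the resistant monoculture 50.0% of cells were in S or G2M, far more than in the sensitive monoculture. A rule that compares these 2 populations can favour genes that are higher in G1, so the ratios by phase in monoculture are a description. Of the sensitive cells, 366 (11.0%) were in S or G2M in monoculture and 921 (44.7%) in coculture. In monoculture the level in S or G2M over that in G1 was 0.211 (0.151 to 0.288) for PLA2G2A, 0.430 (0.342 to 0.535) for HOPX, 0.438 (0.376 to 0.507) for MYLK and 0.729 (0.550 to 0.952) for CPLANE1. CLCA2 at 0.776 (0.582 to 1.02) could not be told apart from 1 by counting error, and COL3A1 was higher in cycling cells, at 1.36 (1.24 to 1.48). For MYLK the share of cells with a UMI was 30.7% in G1, 35.2% in S and 28.4% in G2M, and the most UMIs in 1 cell were 110, 7 and 4. COL3A1 stood highest in S, at 56.2 CPM (50.7 to 62.3) against 33.5 CPM in G1 and 35.3 CPM in G2M. The most COL3A1 UMIs in 1 cell were 43 of 372 in S, 57 of 244 in G2M and 72 of 2775 in G1. Its levels in S and G2M thus rest in part on single cells. The share of cells with a COL3A1 UMI was 26.7% in S, 22.1% in G2M and 13.1% in G1.

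In cocultured sensitive cells the same ratio was 0.206 (0.119 to 0.338) for PLA2G2A, 0.155 (0.0473 to 0.397) for CLCA2 and 0.332 (0.219 to 0.491) for HOPX, while it was 0.602 (0.522 to 0.694) for MYLK, 0.818 (0.670 to 0.998) for CPLANE1 and 0.863 (0.773 to 0.963) for COL3A1. For COL3A1 the pooled ratio lay on the other side of 1 than in monoculture. In coculture it had 21.7 CPM (19.5 to 24.0) in S, 20.0 CPM (18.6 to 21.5) in G1 and 12.9 CPM (11.2 to 14.7) in G2M, so that S and G1 could not be told apart and G2M was lower. Among G1 cells alone the ratio of coculture over monoculture was 0.169 (0.116 to 0.238) for CLCA2, 0.189 (0.152 to 0.232) for PLA2G2A, 0.201 (0.164 to 0.244) for HOPX, 0.465 (0.423 to 0.510) for MYLK, 0.597 (0.549 to 0.647) for COL3A1 and 1.04 (0.887 to 1.21) for CPLANE1. In G1 the same 2 genes were kept and the same 3 lost as over all cells. Among S or G2M cells CLCA2 (0.0337), HOPX (0.155) and PLA2G2A (0.184) were also under 0.25, but COL3A1 at 0.379 (0.338 to 0.425) was under the limit for a kept gene, with MYLK at 0.639 and CPLANE1 at 1.17 above it.

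**Figure D5:**
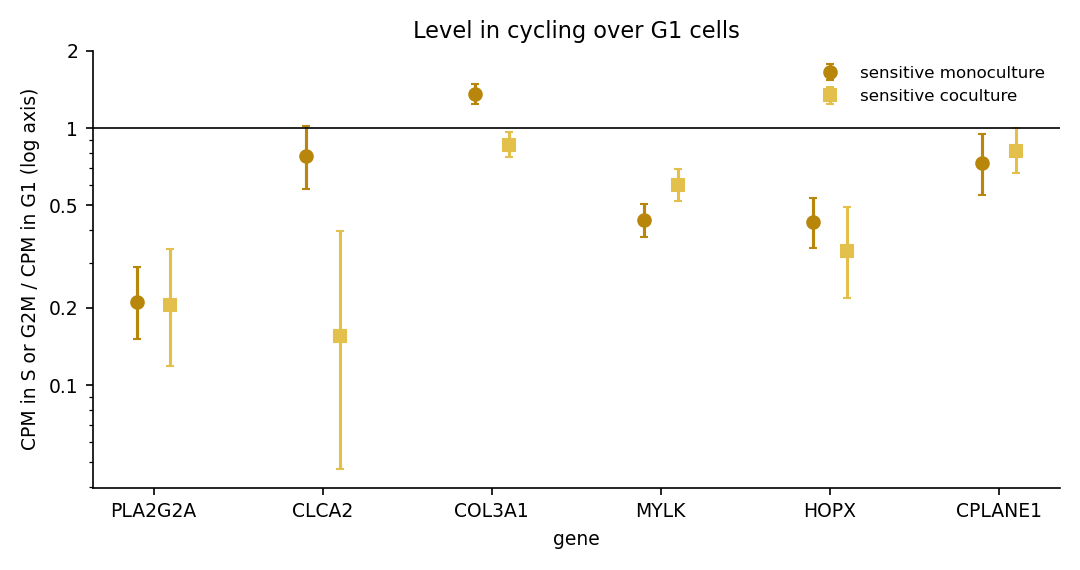
Level in S or G2M cells over the level in G1 cells (log axis) for sensitive cells of the monoculture and the coculture, with 95% conditional binomial intervals. PLA2G2A, MYLK, HOPX and CPLANE1 lie under 1 in both cultures with their intervals and COL3A1 lies above 1 only in monoculture.

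Sensitive monoculture cells without a transgene UMI also carried the genes. These cells were among those summed for the choice of the genes, so their levels are a description. Of the sensitive monoculture cells, 1071 had no mVenus UMI, and these had 11.8 CPM of PLA2G2A, 36.4 CPM of COL3A1, 12.3 CPM of HOPX and 6.12 CPM of CPLANE1, against 13.2, 34.7, 14.4 and 5.88 CPM in the 2258 cells with one. CLCA2 was lower without an mVenus UMI, at 3.68 CPM (3.02 to 4.45) against 6.21 CPM (5.63 to 6.83), and MYLK higher, at 37.95 CPM (35.7 to 40.3) against 25.7 CPM (24.5 to 27.0).

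Other genes of the same pathways mostly differed little between the cultures on a log2 scale with a pseudocount of 1 CPM. Of 9 phospholipase and prostaglandin genes with at least 50 UMIs, none differed by log2 1 or more in sensitive cells between the cultures (coculture over monoculture, pseudocount 1 CPM), and PLA2G10 (log2 0.59) and PLA2G6 (log2 0.46) differed most. Of 3 channel genes of the CLCA2 list, 1 was lower by that much in coculture, TMC5, at a log2 ratio of -1.57 from 8.17 to 2.09 CPM, and ANO6, a lipid scramblase and ion channel, followed at -0.57. TMC5 itself met the limits by which the 6 genes were selected. Of 21 p53 target genes, a list chosen because CLCA2 is one, none differed that far, and CDKN1A (-0.76), the p21 inhibitor of cyclin-dependent kinases, and BBC3 (-0.72), a cell death gene, were lowest.

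Among 16 other collagen and matrix genes none differed by log2 1, and PCOLCE (0.67), which promotes collagen processing, and PLOD2 (0.66), a collagen lysyl hydroxylase, differed most. Nor did any of 21 contractile genes, where the regulatory light chains MYL12A (-0.89) and MYL12B (-0.86) differed most, of 10 homeobox genes and HOPX partners, led by HOXB2 (-0.71) and MSX2 (-0.61), or of 27 cilium and polarity genes, led by OFD1 (-0.62) and CEP290 (-0.56). Over all 12326 genes with at least 50 UMIs, 1.53% were higher and 1.04% lower in coculture by log2 1 or more, and the median was -0.05. The medians of the 7 lists ran from -0.57 for the 3 channel genes to 0.10 for the homeobox list. The pseudocount of 1 CPM shrinks ratios of genes near or under that level, and the kept and lost calls used none. HOXB2 had 1.29 CPM in sensitive monoculture and 0.395 CPM in sensitive coculture cells. FAS, a p53 target, had 0.322 and 0.790 CPM and COL6A2 0.281 and 0.691 CPM, both named after their values were seen.

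Genes that fibroblasts express beside COL3A1 were detected in part. In the 478 sensitive monoculture cells with a COL3A1 UMI, COL1A2, COL6A3, LUM and DCN had 0 UMIs, and COL1A1, which encodes the main chain of collagen I, had 3.29 CPM against 3.16 CPM in the cells without COL3A1. In the same cells COL5A1, a chain of collagen V, had 10.1 CPM against 13.5 CPM, COL6A1, a chain of collagen VI, 3.16 against 2.54 CPM, FN1, which encodes fibronectin, 0.515 against 0.657 CPM, and SPARC, a matrix protein, 0.322 against 0.136 CPM from 5 and 11 UMIs. MYLK and CLCA2 are known in myoepithelial cells too. The 8 myoepithelial markers summed to 6.33 CPM in the sensitive monoculture, 3.29 CPM in sensitive coculture, 2.41 CPM in resistant coculture and 1.89 CPM in resistant monoculture. KRT14, a basal keratin, was the largest part of the sum in the sensitive monoculture, at 3.58 CPM, and had 0.61, 0.71 and 0.22 CPM in the other populations. Within the coculture the sum was higher in sensitive cells but KRT14 was not. The actin gene ACTA2 had 0.925, 1.26, 0.301 and 0.0701 CPM in the same order, the oxytocin receptor OXTR 1.31, 1.07, 0.927 and 1.21 CPM, and the smooth muscle myosin MYH11 0.426, 0.353, 0.406 and 0.362 CPM, while KRT5, KRT17, TP63 and CNN1 had 0 to 5 UMIs in that monoculture. The part of such cells in the result was not tested.

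The 60 genes nearest to the 6 among those with at least 5 CPM in either monoculture (5 on each side) had log2 ratios of sensitive over resistant monoculture (pseudocount 1 CPM) from -0.82 to 2.12, with a median of 0.23. On the same scale the 6 genes had 2.51 to 4.94, but they were chosen on this contrast and their neighbours were not, so the gap is set by the choice. The nearest such neighbours of PLA2G2A, OTUD3 and CAMK2N1, had log2 ratios of 0.66 and 0.13, and those of CLCA2, ODF2L and SH3GLB1, had 1.06 and 0.36. The neighbours of COL3A1, TFPI and WDR75, had -0.58 and 0.22, those of MYLK, HACD2 and CCDC14, had 1.34 and 0.08, those of HOPX, SRP72 and REST, had 0.05 and 0.25, and those of CPLANE1, NIPBL and NUP155, had 0.45 and -0.35. The largest value belonged to FSIP2, the fourth such gene before COL3A1, with 2.12, named after its value was seen. MYLK-AS1, an antisense gene within MYLK, had 2.58, 1.89, 1.35 and 1.07 CPM from sensitive monoculture to resistant monoculture.

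Over 20 groups of population and cluster with at least 100 cells each, the genes whose log2(CPM + 1) was most like that of a member were found among those with at least 5 CPM in the sensitive monoculture. The groups come from 3 libraries and share them, and they include the monocultures on which the 6 genes were chosen, so Pearson's r is a description and a high r between members follows in part from the rule. For PLA2G2A these included ATP5MC2 (r = 0.97) and GPR137B (0.96), and for CLCA2 they were TNFRSF12A (0.93), EFNB2 (0.93) and MGST3 (0.92). For COL3A1 they were FAT1 (0.95), CD47 (0.94) and ZSWIM6 (0.93), for MYLK SYBU (0.97), HIPK2 (0.96) and ANXA2 (0.96), for HOPX ATP6V0E1 (0.98), TMC5 (0.95) and CITED2 (0.95), and for CPLANE1 the noncoding RNAs MIR4435-2HG (0.97) and CYTOR (0.97) and MAPT (0.96). Among the 6 genes, MYLK and CPLANE1 were most alike (r = 0.92), followed by COL3A1 and MYLK (0.90), and PLA2G2A and COL3A1 least (0.37).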

How the data were processed

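Single-cell RNA of 3 CAMA-1 spheroid libraries was measured with 10x Genomics 3′ chemistry, and the deposited counts are UMI counts per gene and barcode, made by the authors with Cell Ranger 3.0.2 on GRCh37 (submitters' processing notes) without normalization. The deposited annotation of the cells the authors kept gives phase, cluster, transgene and population, with UMI counts and a mitochondrial percent per cell that the authors computed in Seurat, and 11 further columns were not used. By the stated methods, cells passed limits on genes, UMIs and mitochondrial percent, doublets were removed, and cells needed 2 or more transgene UMIs. The annotation departs from the last, since 1071 sensitive monoculture cells have no mVenus UMI, and was used as deposited. No doublet caller was run here, and an alternative leaves out the deepest cells instead.

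CPM divides a population's summed UMIs of a gene by its total over rows with a gene symbol. Rows without a symbol held 0.523% to 0.591% of UMIs. Ratios are of CPM without a pseudocount, and log2 ratios use a pseudocount of 1 CPM. Intervals are exact Poisson, exact binomial (Clopper-Pearson) or conditional binomial. No test across samples was possible with 1 library per condition. Where no UMI was counted, the limit is 3 counts. An alternative scaled by TMM (edgeR 4.0.16, R 4.3.3). Python 3.11.15 with scipy 1.17.1 and numpy 2.4.6 did the rest, and the ratios were tested on simulated data.

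The members, gene lists and limits were chosen with earlier results of these data known. Genes named are the members, the 3 genes most like each, the 2 of each related list with the largest log2 ratio in sensitive cells, the 2 on each side of the selection limit, the nearest neighbours of each member with at least 5 CPM, and a few said to be chosen after their values were seen. An item that this rule names is not reported here. Counts are of 3′ ends on the annotation the authors used, and positions come from a later one.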

Additional observations from a re-analysis of the deposited data

Results flagged for a closer look

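For PLA2G2A, CLCA2, COL3A1, MYLK and HOPX the sensitive and the resistant cells differed in opposite directions between monoculture and coculture, how many other genes did so was not counted, and the difference was not tested because each condition was 1 library. The log2 ratio of coculture over monoculture in sensitive cells (no pseudocount) minus that in resistant cells was -4.12 for PLA2G2A (-2.93 and 1.19), -4.71 for CLCA2 (-3.27 and 1.44), -4.46 for COL3A1 (-0.91 and 3.55), -2.57 for MYLK (-1.29 and 1.28) and -3.49 for HOPX (-2.75 and 0.74). For CLCA2 the resistant value rests on 14 and 7 UMIs, 4 of the 7 in 1 cell. For COL3A1 it rests on 423 and 49 UMIs, and 1 cell held 48 of the 423 and another 19 of the 49. The genes were chosen for a high sensitive and a low resistant monoculture level, the divisors of these ratios, so lower values in one lineage and higher ones in the other are what the choice favours. CPLANE1 was not among them, since its sensitive cells did not differ between the cultures beyond counting error. Both lineages of the coculture come from the same library, so RNA set free there reaches both, and its part was not tested.

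The 5314 barcodes of the sensitive monoculture that the authors' annotation leaves out, 4489 of them with a mitochondrial share of 30% or more, also carried all 6 genes. They held 8.45 CPM of PLA2G2A, 5.35 CPM of CLCA2, 44.4 CPM of COL3A1, 16.9 CPM of MYLK, 7.23 CPM of HOPX and 8.77 CPM of CPLANE1. The 3945 left-out barcodes of the resistant monoculture held 0.981 CPM of PLA2G2A, 0.101 CPM of COL3A1, 0.902 CPM of MYLK, 0.417 CPM of HOPX and 0.316 CPM of CPLANE1, and 0 UMIs of CLCA2, which allows up to 0.0338 CPM (3 counts). Relative to the annotated sensitive monoculture cells, COL3A1 and CPLANE1 were higher in the left-out barcodes, and PLA2G2A, MYLK and HOPX were lower. The total in CPM counts mitochondrial genes too, so a higher mitochondrial share lowers the CPM of all other genes. The part of this in the values was not tested.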

How the results depend on the processing

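The counts of 4 genes at least 4 times higher in sensitive cells of the coculture, 2 kept and 3 lost held, with the same genes, under TMM factors, the mean of each cell's own CPM, cells with 2 or more UMIs of their own transgene, G1 cells, and without the tenth of cells with most UMIs. Other limits moved them: at a fold of 16 within the coculture 0 genes were left and at 2 there were 5 (HOPX added), at 0.75 of the monoculture level 1 gene (CPLANE1) was kept, and under 0.1 of it 0 were lost and under 0.5 there were 4 (MYLK added). Without sensitive coculture cells of cluster 4 the first count was 3, without CLCA2. The median log2 ratio over the 6 genes (pseudocount 1 CPM) was 1.41 within the coculture, -1.63 for sensitive cells in coculture over monoculture and 3.27 between the monocultures. It became 2.23, -1.99 and 4.76 with a pseudocount of 0.1 CPM, and 2.78, -2.02 and 4.97 with none, and the second became -1.41 in G1 cells. The median share of sensitive monoculture cells with a UMI of a gene was 5.59% at 5000 UMIs, 9.47% at 10000 UMIs, 16.6% without thinning and 1.04% where 2 UMIs were required. CPLANE1 in sensitive cells, coculture over monoculture, was the sole gene and ratio to change sign, from -0.05 to 0.05 in log2, within counting error. No paired analysis was possible because each condition was 1 library. Depth limits CLCA2 most, which rests on 40 UMIs in sensitive and 14 in resistant coculture cells.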

Other observations

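Coculture barcodes that met the quality limits but carried UMIs of both transgenes (472 barcodes) or of neither (3523 barcodes) are not in the authors' annotation and entered no comparison. The first held 9.58 CPM of COL3A1, 7.90 CPM of MYLK, 3.64 CPM of CPLANE1, 1.40 CPM of HOPX, 0.784 CPM of PLA2G2A and 0.0560 CPM of CLCA2 (1 UMI). The barcodes with no transgene UMI held 9.18 CPM of COL3A1, 6.24 CPM of MYLK, 2.16 CPM of CPLANE1, 1.19 CPM of HOPX, 1.08 CPM of PLA2G2A and 0.158 CPM of CLCA2. COL3A1, MYLK, CPLANE1 and HOPX in both sets lay between the resistant and the sensitive cells of the coculture. PLA2G2A and CLCA2 did so only in the barcodes with no transgene UMI. The 982 coculture barcodes with mVenus alone that fell outside the quality limits held 25.9 CPM of COL3A1, 9.49 CPM of MYLK, 6.33 CPM of CPLANE1, 2.69 CPM of PLA2G2A, 2.57 CPM of HOPX and 1.97 CPM of CLCA2. The 1319 such barcodes with mCherry alone held 3.74 CPM of COL3A1, 2.69 CPM of MYLK, 2.43 CPM of PLA2G2A, 1.67 CPM of CPLANE1, 1.31 CPM of HOPX and 0.327 CPM of CLCA2.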
